A study of Mus musculus with 9 samples.

Results

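The deposited miRNA table of liver exosomes held 131 entries that the authors' pipeline had predicted and that carry no miRBase name, out of 722 entries in all. They were taken by the prefix that marks predicted rows, over all 9 libraries, and are written here as "predicted" followed by the name in the table. Per the study's methods, vesicles were spun out of the supernatant of liver pieces kept in culture with collagenase. The labels name hepatic exosomes but describe tissue RNA. Each group held 3 libraries that were taken as 3 mice. KO HFFC mice carried floxed Hsp90β alleles (Hsp90ab1) with Albumin-Cre, which the study used to delete the gene in hepatocytes. They ate the HFFC diet, rich in fat, fructose and cholesterol. Flox HFFC mice carried the floxed alleles without deletion on the same diet, and flox chow mice carried them on chow, so all groups shared the floxed alleles. The age of the mice of these libraries is not given in the labels. Replicates were compared as separate samples, and p values measure only the spread between them.

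A miRNA is cut from the stem of a short RNA hairpin, and either arm of the stem (5p or 3p) can give the mature strand that guides Argonaute to messenger RNAs. Prediction programs propose hairpins from stacks of small RNA reads that fall on a genome in the pattern that Dicer leaves. Fragments of transfer, ribosomal or other abundant RNAs are known to enter such lists, so a predicted entry is a candidate and not an established miRNA. No target or host gene of a predicted entry was used here.

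The numbers in the predicted names ran between 2 and 496 and covered 123 hairpins. The entries comprised 75 5p and 56 3p arms, and 74.9% of predicted counts lay in 5p arms. For 115 hairpins 1 arm was listed and for 8 both were. Where both arms were listed, 1 arm usually took most counts: predicted miR24-5p had 36271 counts over the 9 libraries and miR24-3p had 18, and predicted miR78-3p had 928 counts against 3 for miR78-5p. In predicted miR327 the arms were closer, with 913 counts for 5p and 212 for 3p.

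Names of 33 predicted entries repeated the number and arm of a miRBase miRNA in the same table, and counts of such name pairs differed widely. No sequence of a predicted entry was used here, and none is printed. The mature sequences of 3 miRBase miRNAs that share number and arm with a predicted entry are given, since the numbers may be taken for these miRNAs. Whether the predicted entries have the same sequences was not tested. The 3 miRBase sequences are from RefSeq (GRCm38.p6), with the seed (bases 2 to 8) in capitals.
mmu-miR-24-1-5p: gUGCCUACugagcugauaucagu
mmu-miR-205-5p: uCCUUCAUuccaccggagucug
mmu-miR-28a-5p: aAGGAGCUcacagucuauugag
These lie at chr13:63301213-63301235 (plus strand), chr1:193507503-193507524 (minus strand) and chr16:24827868-24827889 (plus strand). Predicted miR24-5p had 36271 counts over the 9 libraries, against 1729 for miRBase miR-24-2-5p and 143 for miR-24-1-5p, which both share its number and arm. The miRBase miR-205-5p, known from squamous and glandular epithelia, had 6, 101 and 161 counts in KO HFFC, 0, 1 and 1 in flox HFFC and 4, 7 and 0 in flox chow. Predicted miR205-5p had 365, 609 and 589 counts in KO HFFC, 730, 605 and 947 in flox HFFC and 1212, 1868 and 1041 in flox chow. The high libraries of one row were not those of the other. Whether a predicted entry relates to the miRBase miRNA of its number was not tested.

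The libraries held 218256 to 681286 miRNA counts, fewest in flox chow replicate 3. Hepatocyte miRNAs (miR-122, miR-192 and miR-194) made up 23.4% to 41.0% of counts in every library. The labels name liver, and these shares cannot tell exosomes from liver tissue. Markers of striated muscle took 0.590% of counts in flox chow replicate 3 against 0.0277% or less elsewhere. Markers of other epithelia (miR-204, miR-205, miR-200c, miR-141 and miR-135b) took 0.302% in KO HFFC replicate 2 and 0.828% in replicate 3, against 0.0137% or less elsewhere. These libraries are named again where a predicted entry was high in them, and the part of such RNA in those values was not tested. In bulk samples fewer cells of a type and less RNA per cell cannot be told apart.

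Predicted entries were a small part of the miRNA counts. They were 18.1% of the entries but 3.05% of the counts (118319 of 3873973). Their share was 2.63%, 4.25% and 3.18% in KO HFFC replicates 1 to 3, 4.09%, 1.24% and 3.29% in flox HFFC, and 3.41%, 2.62% and 4.98% in flox chow. The 95% Wilson intervals, which cover counting error only, were narrow beside these gaps, for example 1.21% to 1.27% in flox HFFC replicate 2 and 4.89% to 5.07% in flox chow replicate 3. The group means were 3.35% ± 0.823 in KO HFFC, 2.87% ± 1.47 in flox HFFC and 3.67% ± 1.20 in flox chow (SD, n = 3), and all groups overlapped.

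**Figure D1:**
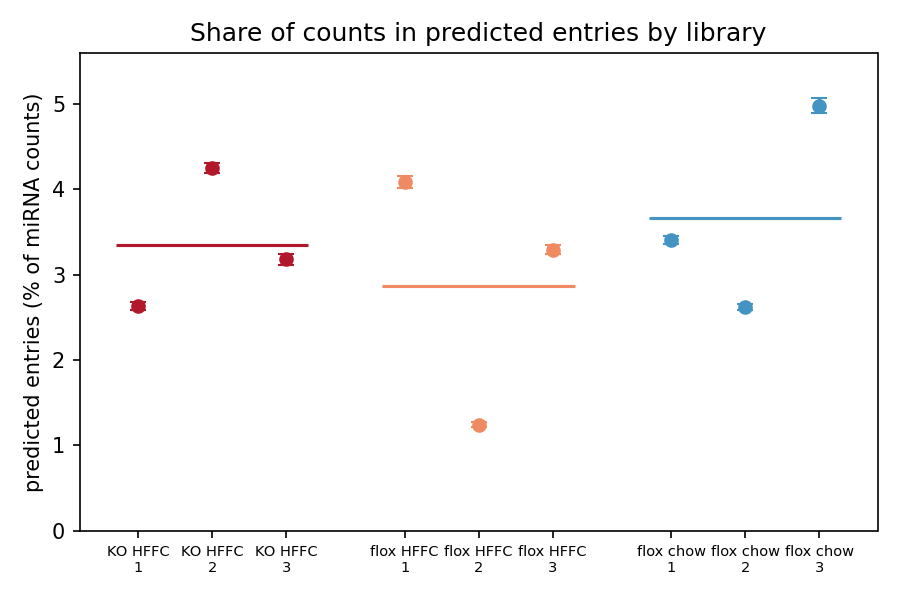
Share of miRNA counts that fell in predicted entries (percent, y axis) for each of 9 libraries. Points are libraries with 95% Wilson intervals and lines are group means, and the shares of 1.24% in flox HFFC replicate 2 and 4.98% in flox chow replicate 3 mark the ends of the range.

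No group differed in this share beyond the spread between libraries. The difference was 0.479 percentage points for KO HFFC against flox HFFC, −0.795 for flox HFFC against flox chow and −0.317 for KO HFFC against flox chow. Exact two-sided permutation tests gave p = 0.7, 0.5 and 0.7 (adjusted p = 0.7 for all 3), where 3 against 3 libraries can reach no less than 0.1. Leaving out flox HFFC replicate 2 turned the sign of the first 2 differences (−0.338 and 0.0217).

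Counts of predicted entries did not follow the yield of named miRNAs closely. Named counts ranged from 207382 to 663450 and predicted counts from 7490 to 19434, and the correlation of the pair over the 9 libraries was weak (Pearson r = 0.317, exact permutation p = 0.403, Spearman rho = 0.35, p = 0.359). The library with the second highest named count, flox HFFC replicate 2, held the fewest predicted counts. The share tended to be lower where totals were higher (r = −0.726, exact permutation p = 0.0262, adjusted p = 0.0393 over 3 relations, rho = −0.65, p = 0.0666, adjusted p = 0.0998). The total is also the denominator of the share. Without the 2 libraries farthest from the median total, flox chow replicates 2 and 3, r was −0.650 (exact permutation p = 0.114) and rho −0.286 (p = 0.556), so the relation was no longer past the threshold in the 7 libraries left, with r of similar size. With miR-122-5p left out of the totals, r was −0.803 (exact permutation p = 0.00950, adjusted p = 0.0285) and rho −0.80 (p = 0.0138, adjusted p = 0.0415). Without the same 2 libraries these were −0.743 (exact permutation p = 0.0558) and −0.607 (p = 0.167). In KO HFFC the library with the highest total also had the highest share, and each group had too few libraries for a value of its own.

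**Figure D2:**
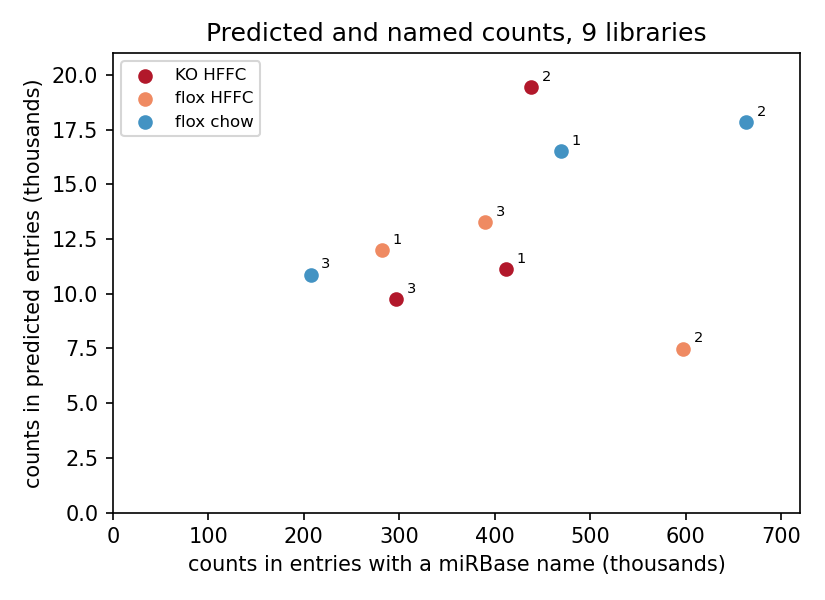
Counts in predicted entries (y axis, in units of 1000) against counts in entries with a miRBase name (x axis, in units of 1000), 1 point per library, coloured by group and numbered by replicate. Over the 9 libraries r was 0.317, and flox HFFC replicate 2 has few predicted counts (7490) at a high named count.

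Most predicted entries were rare. Of the 131, 57 had fewer than 10 counts over all 9 libraries and 16 had a single count, while 15 had 1000 or more. Predicted entries were counted in 1 library alone in 27.5% of cases (36 of 131), against 18.3% (108 of 591) of entries with a miRBase name. They were counted in all 9 libraries in 24.4% of cases (32 of 131), against 35.9% (212 of 591). The 36 entries seen in 1 library held 85 counts together and at most 6 each. At these depths a listed 0 leaves room for an expected count of up to 3, or between 4.40 and 13.7 counts per 1e+06 of a library.

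**Figure D3:**
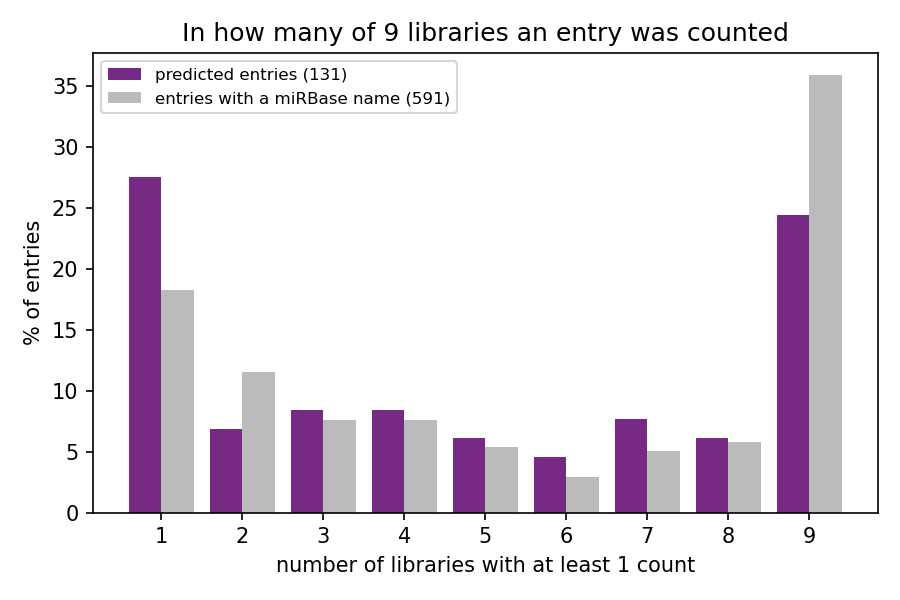
Percent of entries (y axis) by the number of libraries in which an entry had at least 1 count (x axis), for 131 predicted entries and 591 entries with a miRBase name. The predicted entries have more at 1 library (27.5% against 18.3%) and fewer at 9 (24.4% against 35.9%).

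Of the predicted entries, 18 were counted only in KO HFFC, 14 only in flox HFFC and 10 only in flox chow, while 72 were counted in all 3 groups. Such counts depend on library totals and are not given here for named entries. Their order is therefore not read as a trait of predicted entries. None of the entries confined to a group had more than 9 counts in total. After the libraries were brought to an equal depth of 218256 counts by calculation, 63.1, 69.0 and 67.0 predicted entries remained countable in KO HFFC, 58.5, 56.5 and 61.1 in flox HFFC, and 56.3, 63.9 and 64.0 in flox chow. Every KO HFFC library lay above every flox HFFC library, a mean difference of 7.66 entries (66.3 ± 3.00 against 58.7 ± 2.30, SD, n = 3). The exact two-sided permutation p was 0.1, the smallest possible, and the adjusted p over 3 comparisons was 0.3. KO HFFC replicates 2 and 3, where epithelial markers were high, had the highest values. Named entries went the same way, with 334, 367 and 352 countable at equal depth in KO HFFC, against 295, 327 and 317 in flox HFFC (a mean difference of 38.0, exact permutation p = 0.1, adjusted p = 0.15). Without KO HFFC replicate 2 the difference in predicted entries was 6.35. Flox HFFC against flox chow differed by −2.71 entries (adjusted p = 0.4) and KO HFFC against flox chow by 4.95 (adjusted p = 0.4), both from the exact permutation test.

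A few entries carried most of the predicted counts. Predicted miR24-5p and miR220-5p together held 49.9% and the 10 most abundant held 85.8%. Predicted miR24-5p ranked 24th among all 722 entries and miR220-5p ranked 28th, and 6 predicted entries were among the 50 most abundant. Predicted miR24-5p had 5067, 4650 and 2270 counts in KO HFFC, 5583, 2745 and 4537 in flox HFFC and 2988, 5800 and 2631 in flox chow. The groups overlapped fully, and its largest share of a library was 1.90% in flox HFFC replicate 1. Predicted miR220-5p had 273, 2829 and 1778 counts in KO HFFC, 1508, 785 and 2191 in flox HFFC and 6746, 3695 and 2939 in flox chow. It was the most abundant predicted entry in flox chow replicates 1 and 3, and predicted miR24-5p was in the other 7 libraries. In KO HFFC replicate 1 miR220-5p was 2.46% of predicted counts, against 40.8% in flox chow replicate 1.

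Below them stood predicted miR205-5p (7966 counts over 9 libraries), miR365-5p (6454), miR143-3p (6385), miR142-3p (5740), miR101-5p (4843), miR61-3p (4827), miR389-3p (3208) and miR112-3p (3035). Predicted miR365-5p had 588, 2117 and 458 counts in KO HFFC, 487, 398 and 747 in flox HFFC and 541, 510 and 608 in flox chow. Its count in KO HFFC replicate 2 was the only one above 1000. Predicted miR112-3p shared this shape, with 156, 1082 and 317 counts in KO HFFC, 257, 216 and 318 in flox HFFC and 183, 231 and 275 in flox chow. Predicted miR143-3p was highest in the same library but also high in flox chow replicate 1, with 702, 1794 and 564 counts in KO HFFC, 552, 220 and 510 in flox HFFC and 1162, 606 and 275 in flox chow.

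Levels are given from here on as CPM, the counts of an entry relative to 1e+06 counts of the tested entries after TMM scaling. Between the lowest and the highest of the 9 libraries the CPM of the 10 most abundant entries differed by 3.33-fold (predicted miR142-3p) to 27.9-fold (predicted miR220-5p). Flox HFFC replicate 2 was among the 2 lowest libraries for 8 of the 10, and flox chow replicate 3 was the highest for 5 of the 10. KO HFFC replicate 2 was the highest for 3, which were the predicted miR365-5p, miR143-3p and miR112-3p. For miR365-5p and miR112-3p the next highest CPM was in flox chow replicate 3, the library of fewest counts (3950 and 2019 CPM in KO HFFC replicate 2, against 3439 and 1555 CPM there), and for miR143-3p it was in flox chow replicate 1.

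**Figure D4:**
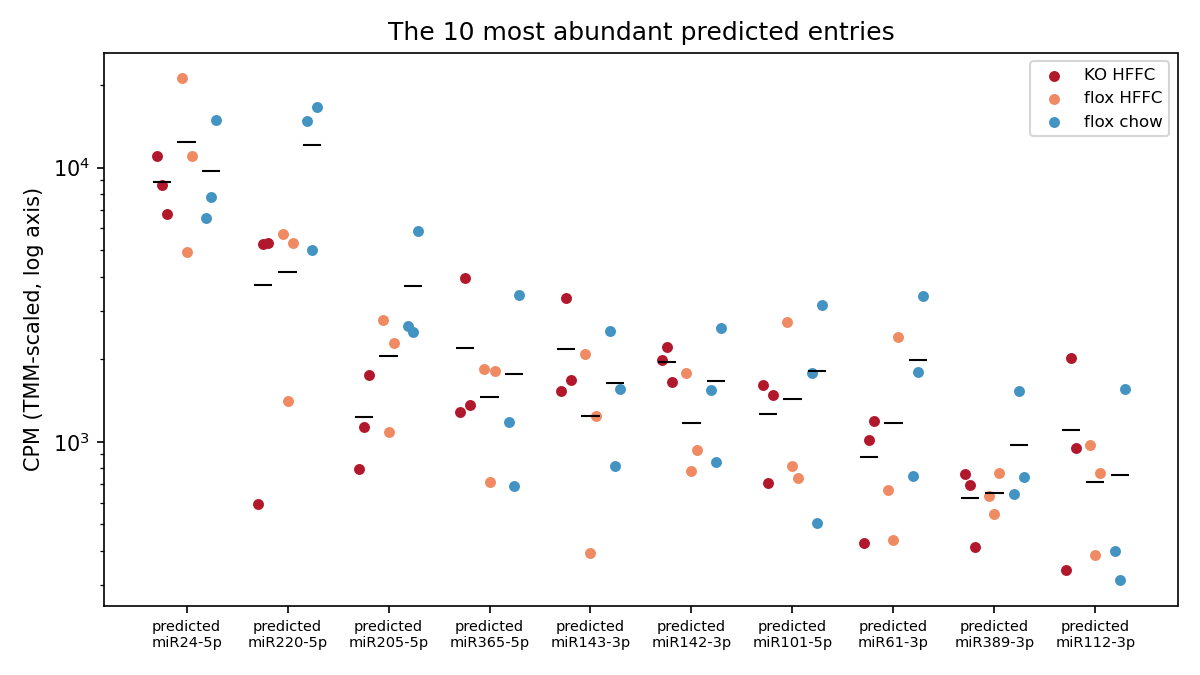
CPM (TMM-scaled, log axis) of the 10 most abundant predicted entries in 9 libraries. Points are libraries coloured by group and black lines are group means, and predicted miR220-5p has the widest range, 595 CPM in KO HFFC replicate 1 to 16623 CPM in flox chow replicate 3.

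Predicted entries varied more between libraries of a group than named miRNAs did in the same fit. The coefficient of variation of CPM within groups, averaged over the groups, had a median of 62.9% over the 30 predicted entries that passed the low-count filter and of 38.6% over the 218 named ones. Among entries with 1000 or more counts the medians were 55.8% (15 predicted) and 29.3% (88 named), and among those with fewer they were 65.1% (15) and 48.0% (130). Ranges overlapped, at 32.4% to 123% for predicted entries and 10.9% to 147% for named ones. These values describe the table, since entries of 1 library are not replicates. Predicted miR389-3p was the steadiest (32.4%) and miR241-5p was the most variable (95.3%) of those with 1000 or more counts.

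Single libraries held much of some entries. Among the 58 predicted entries with at least 20 counts, none had 80% of its counts in 1 library or 90% in 1 group. Taking 50% instead, a limit chosen after the values were seen, gave 6 entries. Of these, predicted miR111-5p (35 of 46 counts), miR261-5p (31 of 46), miR15-5p (185 of 368), miR474-3p (38 of 76) and miR74-3p (14 of 28) had theirs in KO HFFC replicate 2. Predicted miR149-5p (16 of 31) had its counts in flox chow replicate 3. By share of a library's counts, KO HFFC replicate 2 was the highest library for 20 of the 58 and flox chow replicate 3 for 13. For named entries with at least 20 counts they were highest for 43 and 22 of 302. KO HFFC replicate 3, with the most epithelial marker RNA, was highest for 9 of the 58 and for 55 of the 302 named entries, the most of any library for named entries.

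The filter on low counts left 30 of the 131 predicted entries, which held 98.6% of predicted counts. The other 101 had 76 counts or fewer over the 9 libraries, with a median of 8. Differences were tested with edgeR's quasi-likelihood test over all 248 entries that passed, with Benjamini-Hochberg adjustment over all of them. No predicted entry passed an adjusted p of 0.05 in any comparison (0 of 30 each, with 0% of all 248 entries called). DESeq2 and limma-voom also called 0 predicted entries in each. Over all entries limma-voom called 0, and DESeq2 called 0.696% for KO HFFC against flox HFFC (5 of 718), 0 for flox HFFC against flox chow and 0.836% for KO HFFC against flox chow (6 of 718).

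KO HFFC against flox HFFC asked what the loss of hepatocyte Hsp90β on the same diet goes with. The log2 fold change was above 0 for 20 and below 0 for 10 of the 30 predicted entries. Their median was 0.48, against −0.03 over all 248 entries. The median was −0.03 without flox HFFC replicate 2, with few predicted counts, over the 33 predicted entries that then passed the filter. It was 0.01 without KO HFFC replicate 2, over 34. The filter was applied anew in these fits, so the set of entries changed along with the libraries. When counts were scaled by totals alone, the median of all entries moved to 0.21 and that of the predicted entries to 0.72. At an unadjusted p under 0.05 there were 2 predicted entries, both higher in KO HFFC, against 8.06% of all entries (4.84% higher and 3.23% lower), and the lowest edgeR adjusted p was 0.405. Of these 2, miR311-3p was kept by the filter only through KO HFFC, which partly fixes its direction. KO HFFC and flox HFFC libraries did not overlap for 5 of the 30, all higher in KO HFFC and miR311-3p among them, against 14.1% of all entries (6.85% higher and 7.26% lower).

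Predicted miR311-3p had 45.8, 26.1 and 41.8 CPM in KO HFFC, against 3.80, 7.16 and 4.86 CPM in flox HFFC. All 3 KO libraries were above all flox HFFC libraries, and the log2 fold change was 2.72 ± 1.03 (SE, edgeR adjusted p = 0.405). It rests on 21, 14 and 14 counts against 1, 4 and 2. This entry passed the low-count filter only through its 3 KO HFFC libraries, so the filter and the direction are tied. Without the filter the log2 fold change was 2.82 (edgeR adjusted p = 0.478). Predicted miR2-5p had 146, 407 and 391 CPM in KO HFFC, against 60.8, 104 and 80.1 CPM in flox HFFC, a log2 fold change of 1.93 ± 0.87 (edgeR adjusted p = 0.605). Its KO replicates 2 and 3, those with epithelial markers, were well above replicate 1. Predicted miR214-3p had 591, 655 and 1083 CPM in KO HFFC, against 433, 324 and 452 CPM in flox HFFC (0.95 ± 0.49, edgeR adjusted p = 0.629). Without KO HFFC replicate 3 this was 0.59.

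Predicted miR279-3p had 80.7, 108 and 95.5 CPM in KO HFFC, against 60.8, 12.5 and 51.0 CPM in flox HFFC (1.22 ± 0.79, edgeR adjusted p = 0.689). The groups did not overlap, but the value was 0.68 without flox HFFC replicate 2. Predicted miR142-3p had 1991, 2222 and 1653 CPM in KO HFFC, against 1782, 782 and 935 CPM in flox HFFC (0.75 ± 0.46, edgeR adjusted p = 0.689), with flox HFFC replicate 1 inside the KO range. Predicted miR205-5p was the only 1 of these 6 on the lower side, with 796, 1136 and 1758 CPM in KO HFFC, against 2773, 1083 and 2300 CPM in flox HFFC (−0.74 ± 0.47, edgeR adjusted p = 0.689), and the groups overlapped. The fifth entry without overlap was miR327-3p (0.76 ± 0.72, edgeR adjusted p = 0.862).

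Flox HFFC against flox chow asked what the diet goes with in mice with intact Hsp90β. Here 11 of the 30 predicted entries lay above 0 and 19 below, and their median log2 fold change was −0.30, against −0.02 over all entries. This median was 0.04 in limma-voom and 0.61 without flox chow replicate 3, where 38 predicted entries passed the filter, so its sign was not stable. In edgeR 0 of 30 predicted entries had an unadjusted p under 0.05, against 4.44% of all entries (2.02% higher and 2.42% lower). The groups overlapped for all 30, against 8.47% of all entries without overlap (4.84% higher and 3.63% lower). The edgeR adjusted p was 0.985 for each of the 30.

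Predicted miR220-5p had 5728, 1405 and 5321 CPM in flox HFFC, against 14746, 4993 and 16623 CPM in flox chow. Flox chow replicate 2 lay among the HFFC libraries, and the log2 fold change was −1.55 ± 0.82 (SE, edgeR adjusted p = 0.985). Predicted miR2-5p had 60.8, 104 and 80.1 CPM in flox HFFC, against 28.4, 123 and 600 CPM in flox chow (−1.57 ± 0.87, edgeR adjusted p = 0.985). Flox chow replicate 3, with the fewest counts and the muscle miRNAs, set this value, which was 0.14 without it. Predicted miR205-5p had 2773, 1083 and 2300 CPM in flox HFFC, against 2649, 2524 and 5888 CPM in flox chow (−0.85 ± 0.48, edgeR adjusted p = 0.985), and was at −0.30 without that library.

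Predicted miR389-3p had 634, 546 and 767 CPM in flox HFFC, against 643, 1532 and 741 CPM in flox chow (−0.58 ± 0.46, edgeR adjusted p = 0.985). Its value was −0.11 without flox chow replicate 2, the high library. The other entries of lowest p were rare. Predicted miR328-5p had 10, 4 and 0 counts in flox HFFC against 4, 0 and 0 in flox chow (2.04 ± 1.54, edgeR adjusted p = 0.985), and was at 0.24 without flox HFFC replicate 1. Predicted miR311-3p had 1, 4 and 2 counts in flox HFFC against 8, 1 and 5 in flox chow (−1.28 ± 1.10, edgeR adjusted p = 0.985), and at 0.06 in limma-voom its sign turned.

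KO HFFC against flox chow differs in diet and genotype at once, which cannot be told apart, and it shares libraries with both other comparisons. Again 20 of the 30 predicted entries lay above 0 and 10 below. Their median log2 fold change was 0.40, against −0.05 over all entries. It was −0.03 without KO HFFC replicate 2 and 1.44 without flox chow replicate 3, where 34 and 38 predicted entries passed the filter. With counts scaled by totals alone the medians were 0.74 for the predicted and 0.18 for all entries. At an unadjusted p under 0.05 there were 2 predicted entries, 1 in each direction, against 12.9% of all entries (6.85% higher and 6.05% lower). Groups did not overlap for the same 2, against 17.7% of all entries (8.06% higher and 9.68% lower). The lowest edgeR adjusted p was 0.275.

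Predicted miR205-5p had that lowest p. It had 796, 1136 and 1758 CPM in KO HFFC, against 2649, 2524 and 5888 CPM in flox chow. Every KO library was below every chow library, and the log2 fold change was −1.58 ± 0.48 (SE, edgeR adjusted p = 0.275). Under the 17 alternative settings it lay between −2.04 and −1.11 and its adjusted p between 0.0187 and 0.465. The lowest of these, from edgeR without the low-count filter, was the only call of a predicted entry in any setting. That is 1 of 131 predicted entries, where 1.39% of all 722 entries were called, while the same fit called 0.97% of all entries and 0 predicted ones for KO HFFC against flox HFFC, and 0 entries for flox HFFC against flox chow.

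Predicted miR328-5p had 61.1, 26.1 and 20.9 CPM in KO HFFC, against 8.74, 0 and 0 CPM in flox chow (3.43 ± 1.47, edgeR adjusted p = 0.345). It rests on 28, 14 and 7 counts against 4, 0 and 0, and no flox chow library reached the limit of the low-count filter, which it passed through KO HFFC replicates 1 and 2 and flox HFFC replicate 1. Its log2 fold change was 2.59 without flox chow replicate 2 and 2.72 without KO HFFC replicate 1 (edgeR unadjusted p = 0.140 and 0.151). Without flox chow replicate 1 the chow libraries left were both at 0, and no fold is given. Its other arm, miR328-3p, had 0 counts in all KO HFFC libraries and 0, 4 and 5 in flox chow, below the filter. Predicted miR220-5p had 595, 5278 and 5307 CPM in KO HFFC, against 14746, 4993 and 16623 CPM in flox chow (−1.70 ± 0.83, edgeR adjusted p = 0.501). Flox chow replicate 2 again lay among the other group.

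Predicted miR61-3p had 427, 1017 and 1191 CPM in KO HFFC, against 750, 1800 and 3394 CPM in flox chow (−1.17 ± 0.72, edgeR adjusted p = 0.612), and was at −0.55 without flox chow replicate 3. Predicted miR311-3p had 45.8, 26.1 and 41.8 CPM in KO HFFC, against 17.5, 1.35 and 28.3 CPM in flox chow (1.44 ± 0.97, edgeR adjusted p = 0.645). Flox chow replicate 3 overlapped the KO range, and without flox chow replicate 2 the value was 0.71. Predicted miR389-3p had 763, 696 and 412 CPM in KO HFFC, against 643, 1532 and 741 CPM in flox chow (−0.64 ± 0.46, edgeR adjusted p = 0.668), and was at −0.20 without flox chow replicate 2.

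**Figure D5:**
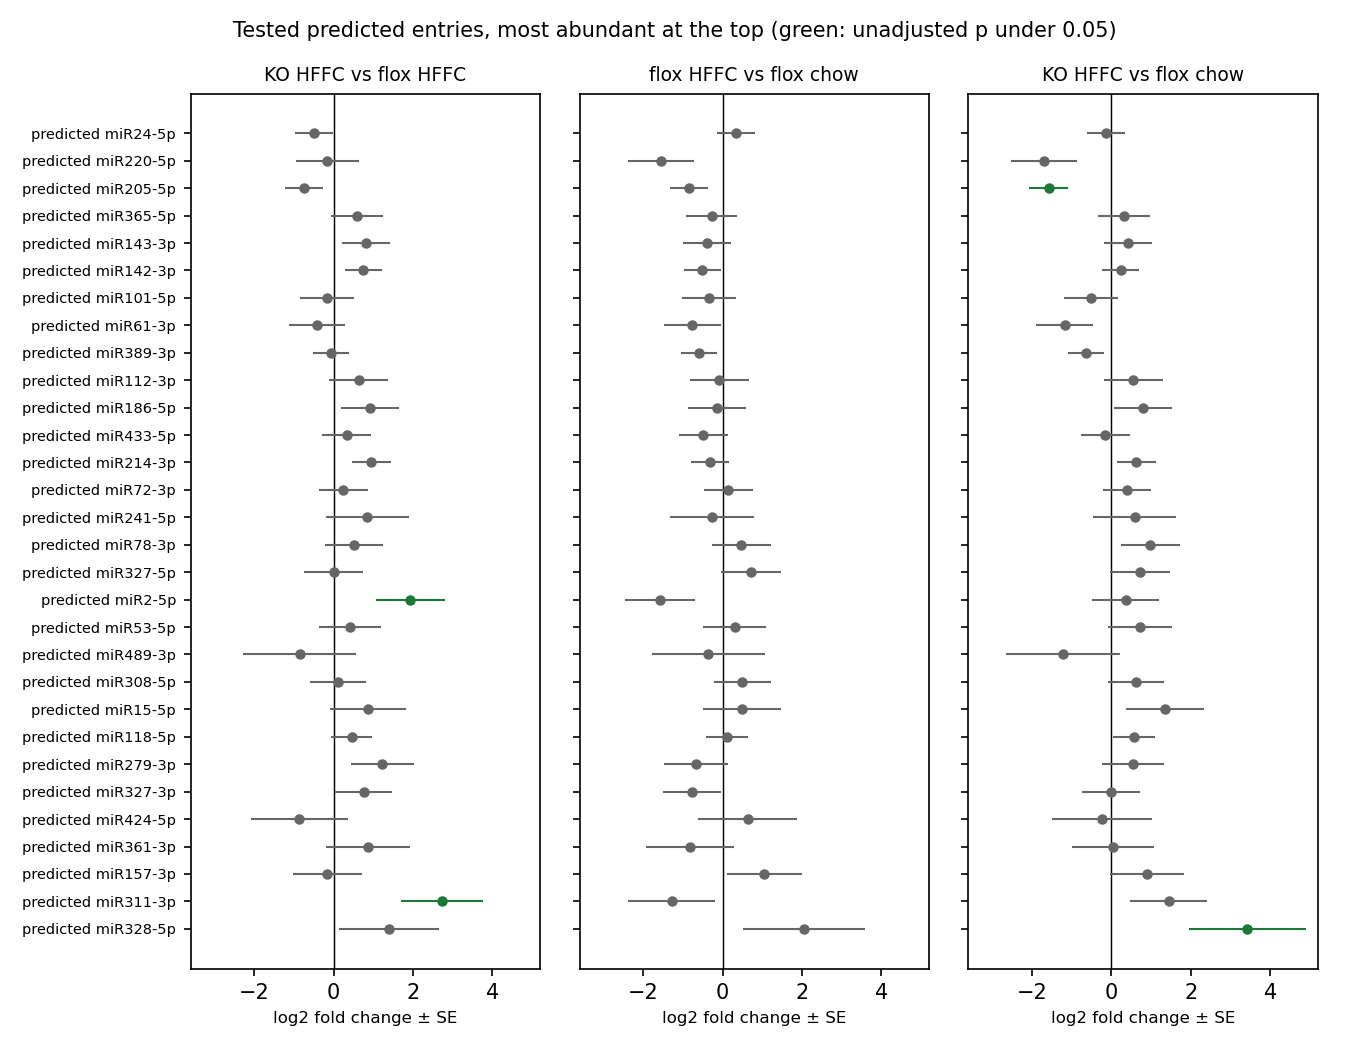
Log2 fold change with its SE (x axis) of the 30 predicted entries that were tested (rows, most abundant at the top) in the 3 comparisons, with unadjusted p under 0.05 in green. Predicted miR311-3p and miR2-5p are green for KO HFFC against flox HFFC, miR205-5p and miR328-5p for KO HFFC against flox chow, and none for flox HFFC against flox chow.

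The most abundant predicted entry, miR24-5p, was close between groups, with log2 fold changes of −0.49 ± 0.48 for KO HFFC against flox HFFC, 0.34 ± 0.48 for flox HFFC against flox chow and −0.14 ± 0.48 for KO HFFC against flox chow. Its CPM ranged from 4913 in flox HFFC replicate 2 to 21207 in flox HFFC replicate 1, so the ends of its range lay in 1 group. The median SE over the 30 entries was 0.74 in all 3 comparisons.

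Predicted miR28-5p and miR489-3p carry the number and arm of miRNAs that the study followed. The study reported both miRNAs as higher in liver exosomes on HFFC and reversed in the knockout. For the diet comparison it named DEGseq, another test than those used here. It also measured miR-28-5p by qRT-PCR in exosomes of primary hepatocytes and human sera. Which rows of the table the study meant was not given. The table has a miRBase row for 28-5p (miR-28a-5p) beside the predicted one, whereas for miR489-3p the predicted row is the only one. Predicted miR28-5p had 0, 1 and 0 counts in KO HFFC, 10, 3 and 4 in flox HFFC and 0, 0 and 0 in flox chow. It was below the filter, and in the edgeR fit without a filter its adjusted p was 0.617 for KO HFFC against flox HFFC and 0.703 for flox HFFC against flox chow (0.0351 and 0.00779 unadjusted). DESeq2 gave adjusted p of 1 for both. The miRBase miR-28a-5p, whose sequence is shown above, had 39, 33 and 25 counts in KO HFFC, 23, 53 and 21 in flox HFFC and 25, 60 and 5 in flox chow. Predicted miR489-3p had 83, 58 and 9 counts in KO HFFC, 66, 11 and 127 in flox HFFC and 12, 11 and 127 in flox chow. Each group held both low and high libraries, and its log2 fold change was −0.85 ± 1.42 for KO HFFC against flox HFFC and −0.35 ± 1.41 for flox HFFC against flox chow (edgeR adjusted p of 0.953 and 0.985).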

How the data were processed

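Small RNA of liver exosomes was sequenced in 9 libraries. Per the study's methods, known miRNAs were identified against miRBase. Bowtie2 is listed in the submitters' processing notes. For the predictor, the counter, the genome build and any collapse of molecular identifiers: not given in the sources used here. Its methods name a NEBNext kit on exosomal RNA, whereas the labels describe tissue RNA with adapters that carry identifiers. The authors deposited 1 table with raw counts per entry, RPM values per library and group means of each. Only the deposited counts were used, the deposited RPM values and group means were not, and 0 sample columns were left unmapped.

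Counts were tested with edgeR 4.0.16 in R 4.3.3 (TMM, filterByExpr with a minimum of 10, robust quasi-likelihood, 9 libraries, no covariate). P values were adjusted over 248 entries with a threshold of 0.05. The SE is the log2 fold change over the root of F. Alternatives used DESeq2 1.42.0, limma 3.58.1, other scalings and filters, 6-library fits, a replicate block and leaving out each library. Shares and detection were compared by exact permutation in Python 3.11.15. The methods were tested on simulated counts. Libraries of the same group differed by more than counting noise (chi-square per degree of freedom of at least 60.6), so none was another library of its own group deposited again. Libraries of different groups were not compared in this way. The difference does not show that libraries of a group came from separate mice.

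Named entries were the 10 most abundant, the 6 of lowest p per comparison, those concentrated in a library or group, the 3 arm pairs with most counts, and numbers the study followed. Any further entry was picked with its values known. The members and lists were chosen with earlier results of these data known.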

Additional observations from a re-analysis of the deposited data

How the results depend on the processing

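No setting gave a called predicted entry except edgeR without the low-count filter, which called 1 for KO HFFC against flox chow (miR205-5p, log2 fold change −1.51, adjusted p = 0.0187), and the cause was not tested. Leaving out 1 library at a time gave 0 called predicted entries in all comparisons. Over all entries it gave 5 calls in both KO comparisons without KO HFFC replicate 1, and 1 for KO HFFC against flox HFFC without flox chow replicate 3. Among the 6 entries of lowest p per comparison, 2 fold changes turned sign in an alternative, both for flox HFFC against flox chow. That of miR2-5p ran from −2.30 to 0.14 when 1 library was left out, the highest without flox chow replicate 3. That of miR311-3p was 0.0649 in limma-voom. The sign of other fold changes named (miR24-5p, miR489-3p and miR327-3p) was not followed through the alternatives. The difference in predicted share ranged from −1.40 to 0.0217 percentage points for flox HFFC against flox chow, from −0.338 to 1.09 for KO HFFC against flox HFFC and from −0.842 to 0.340 for KO HFFC against flox chow when 1 library was left out. Without the 2 most abundant predicted entries, an alternative chosen after seeing the data, it was 0.261 for KO HFFC against flox chow. Leaving out flox chow replicate 3 (0.340) or KO HFFC replicate 1 (0.0451) also turned that sign. The relation of share to total lost its call without flox chow replicates 2 and 3 (r = −0.650). The number of predicted entries at equal depth kept its direction in all 21 alternatives, and leaving out 1 library gave differences of −5.26 to −1.41 for flox HFFC against flox chow, 6.35 to 9.30 for KO HFFC against flox HFFC and 2.40 to 6.59 for KO HFFC against flox chow.

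The labels do not say that replicate numbers pair mice. Of 9 pairs of libraries with the same number, 4 had deviations that correlated above 0.1 (range −0.133 to 0.361). Pairs of libraries with different numbers, from different groups, ran from −0.488 to 0.411. These ranges overlap, and they cannot decide whether the numbers pair libraries. With a replicate block edgeR called 0 predicted entries in each comparison, and the paired differences in share were 0.479, −0.795 and −0.317 percentage points (exact p of 1, 0.5 and 0.75).

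Depth limits the 101 predicted entries below the low-count filter, whose differences were not tested with the filter in place. Over the 30 tested, the median biological coefficient of variation was 62.9%, against 48.5% over the 218 named entries tested. The common value of all entries was 55.0%.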
